A study of Homo sapiens with 12 samples.

Results

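The genes described here were PDK4 and 7 genes of fatty acid oxidation or of the PPAR (peroxisome proliferator-activated receptor) target set, namely CPT1A, CPT2, ACADVL, HADHA, ACOT1, ANGPTL4 and PLIN2. They were picked by gene name, with earlier results of these data known. All 8 were found among the 58735 genes of the deposited count table. The cells were HK-2, an immortalised line of human renal proximal tubule epithelium, and 4 groups of 3 RNA-seq libraries were compared. The control group received water, with no time given in the labels. The iohexol group received 75 mg I/mL of that iodinated contrast medium for 48 h. Cisplatin, a platinum chemotherapy drug, was given at 5 μM for 48 h. The glycopeptide antibiotic vancomycin was given at 4 mM for 48 h. HK-2 is a single line, and the labels do not say whether the 3 libraries of a group came from separate cultures, so the p-values measure only the spread between these samples, which may be technical. Each drug was given at 1 dose and 1 time, and the 3 drug groups were set against the same 3 control libraries.

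Library totals ranged from 14057282 to 18177109 counts, and a count of 3 in a library, the floor used here, came to 0.177 to 0.218 CPM (counts scaled to a common library size, the usual counts-per-million unit). All 8 genes lay above that floor in every library, the lowest being ACOT1 at 6 counts. The third iohexol library stood apart from the other two: the chi-square statistic of its counts against theirs, divided by its degrees of freedom, was 16.5 and 17.5, against 3.82 between iohexol replicates 1 and 2 and 2.34 to 13.1 within the other groups. The iohexol results of the 8 genes against control are therefore also given without it. Of the 11 proximal tubule markers examined, 5 had a control mean above 1 CPM, among them PAX8 and GGT1, while LRP2, the gene of megalin, was at 0 in all 3 control libraries. In bulk RNA, fewer cells of a type and less RNA per cell cannot be told apart.

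Proximal tubule cells are known for taking most of their energy from the mitochondrial oxidation of fatty acids. Long-chain acyl-CoA is handed to carnitine by CPT1A at the outer mitochondrial membrane and returned to CoA by CPT2 on the inner membrane, after which ACADVL performs the first dehydrogenation and the trifunctional protein, of which HADHA is the alpha subunit, the following steps. PDK4 is a kinase that phosphorylates and switches off the pyruvate dehydrogenase complex, and so limits the entry of pyruvate carbon into the citric acid cycle when fatty acids are burned. PPARs are nuclear receptors that pair with RXR and are activated by fatty acids, and PDK4, CPT1A, ANGPTL4, PLIN2 and ACOT1 are well-known targets of theirs. ANGPTL4 and PDK4 are also induced by glucocorticoids, and ANGPTL4 and PLIN2 by hypoxia.

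The promoter letters are shown for the 3 genes that moved most with at least 1 drug and whose promoter was in the reference table used here, since PDK4, ANGPTL4 and PLIN2 are usually named together as PPAR targets. The sequences are from RefSeq (GRCh38.p14), read on the strand of the gene from 5′ to 3′, and 7 of the 8 genes had an entry, ACOT1 being the one without. These starts need not be the gene ends of the deposited table. The PLIN2 start, at 19127492, and the ANGPTL4 start, at 8364155, lie inside the gene. ACADVL had entries for starts at 7217125 and 7219938. The motifs searched on both strands from 250 bases before to 50 after each start were AGGTCA (the nuclear receptor half-site), the direct repeat of that half-site with 1 base between, ACGTG (the core of the hypoxia element), TGTTTAC (forkhead) and CCAAT. For PDK4 the 250 bases before the start (chr7:95596517-95596766, minus strand) are printed, with the CCAAT box, which lies on the opposite strand and so reads ATTGG, in capitals. For ANGPTL4 a window from 250 to 201 bases before the start (chr19:8363905-8363954, plus strand) and for PLIN2 a window from 150 to 86 bases before it (chr9:19127578-19127642, minus strand) are printed, with the ACGTG core, CACGT on the opposite strand, in capitals.
PDK4: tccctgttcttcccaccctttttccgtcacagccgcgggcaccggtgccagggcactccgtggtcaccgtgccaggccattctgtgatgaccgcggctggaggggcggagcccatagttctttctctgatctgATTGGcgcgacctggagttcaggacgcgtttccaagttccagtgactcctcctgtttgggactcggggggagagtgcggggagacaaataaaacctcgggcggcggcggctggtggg
ANGPTL4: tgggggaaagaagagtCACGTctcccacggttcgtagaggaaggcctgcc
PLIN2: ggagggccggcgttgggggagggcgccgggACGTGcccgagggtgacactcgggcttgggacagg
None of the 7 promoters held AGGTCA, which 13.8% of the 35116 promoters in the table held, nor the direct repeat, held by 0.0228% of them, nor TGTTTAC, held by 3.42%. The ACGTG core was in the promoters of ANGPTL4, PLIN2 and ACADVL (the start at 7219938 only), and in 21.4% of all promoters. PLIN2 had that core at 120 bases before the start and again at 68 and 69 bases before it, where the matches on the 2 strands overlap. CCAAT was in PDK4 alone of the 7, at 117 bases before the start, and in 34.6% of all promoters. A match, or the lack of one, describes the letters of these windows and nothing about a factor.

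PDK4 (ENSG00000004799, chr7:95583499-95596491, minus strand) was higher with each of the 3 drugs. In the control libraries it stood at 30.3, 22.7 and 23.5 CPM. With iohexol it was 125.8, 109.8 and 176.2 CPM, with cisplatin 98.0, 86.9 and 101.2 CPM, and with vancomycin 84.9, 60.5 and 64.3 CPM. Every treated library lay above every control library, and the iohexol libraries lay above those of the other two drugs. By edgeR's quasi-likelihood test with Benjamini-Hochberg adjustment over all genes tested, which gives every adjusted p below, the rise was 5.44-fold with iohexol (log2 fold change 2.44, SE 0.17, adjusted p = 2.00e-06). It was 3.74-fold with cisplatin (log2 1.90, SE 0.10, adjusted p = 4.08e-11) and 2.67-fold with vancomycin (log2 1.41, SE 0.13, adjusted p = 3.39e-09). The third iohexol library held the highest value of all, and without it the log2 fold change was 2.23. PDK4 had no exon in common with another gene and shared none of its 31-base words with another annotated transcript.

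The drugs also differed from each other in PDK4. In the fit of all 12 libraries it was higher with iohexol than with cisplatin by 0.53 on the log2 scale (SE 0.15, adjusted p = 0.00516) and than with vancomycin by 0.97 (SE 0.15, adjusted p = 1.49e-05). Without the third iohexol library these differences were 0.31 (adjusted p = 0.0333) and 0.75, in the same order. It was higher with cisplatin than with vancomycin by 0.45 (SE 0.15, adjusted p = 0.0130), a call that was lost without vancomycin replicate 2 or 3.

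**Figure D1:**
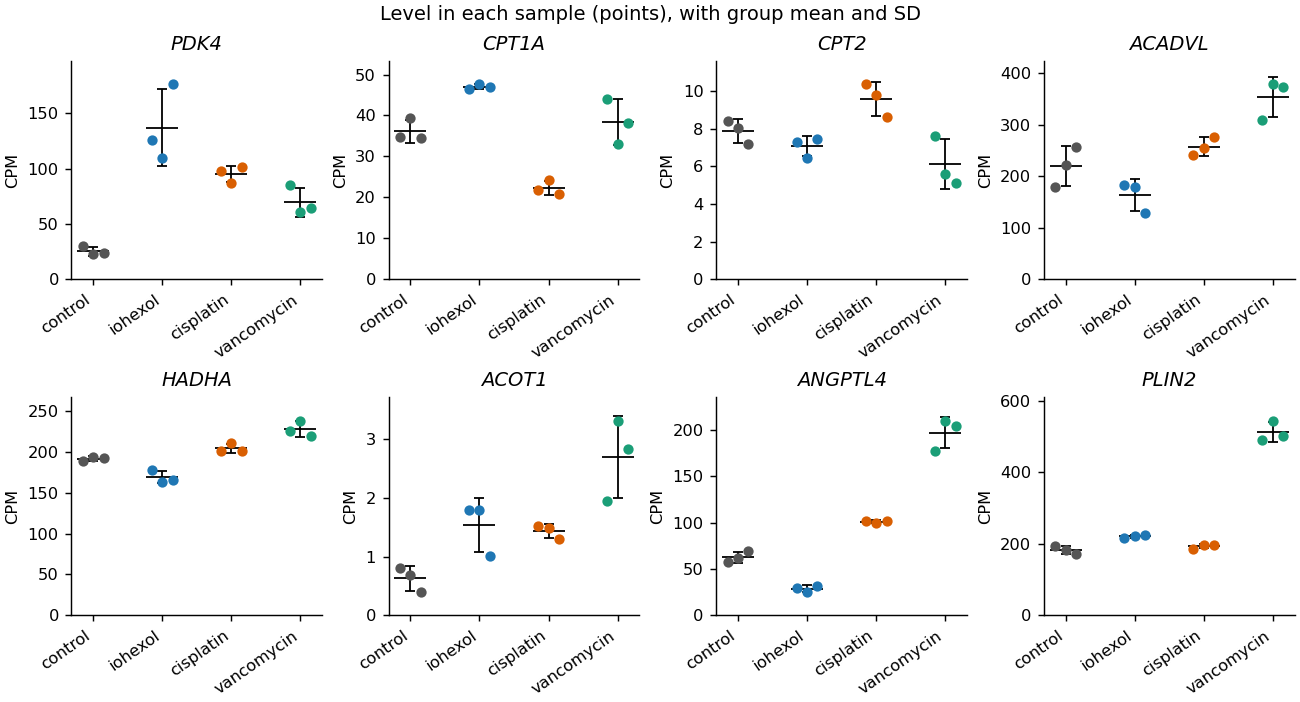
Level of each of the 8 genes in CPM (vertical axes, each starting at 0) in the control, iohexol, cisplatin and vancomycin groups; points are the 3 libraries of a group, the line is their mean and the bar 1 SD either side. PDK4 in the treated groups starts at 60.5 CPM, above the highest control value of 30.3 CPM, while ANGPTL4 lies below the control libraries with iohexol and above them with cisplatin and vancomycin.

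CPT1A (ENSG00000110090, chr11:68754620-68844410, minus strand), the gate of the carnitine shuttle, moved in opposite directions with iohexol and cisplatin. It stood at 34.7, 39.3 and 34.4 CPM in control, 46.4, 47.6 and 47.0 CPM with iohexol, 21.8, 24.3 and 20.9 CPM under cisplatin and 44.1, 33.0 and 38.1 CPM with vancomycin. The iohexol libraries lay above all control libraries and the cisplatin libraries below them, and the vancomycin libraries overlapped with control. It rose 1.32-fold with iohexol (log2 0.40, SE 0.10, adjusted p = 0.0152) and fell 1.62-fold with cisplatin (log2 -0.70, SE 0.10, adjusted p = 7.55e-06). With vancomycin the log2 difference was 0.05 (SE 0.12, adjusted p = 0.756). The difference between iohexol and cisplatin, tested directly, was 1.07 on the log2 scale (SE 0.11, adjusted p = 7.97e-08). The rise with iohexol was lost without control replicate 1 or 3 or iohexol replicate 2, where the adjusted p was 0.0541, 0.0846 and 0.0649. Without the third iohexol library the log2 difference was 0.40.

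CPT2 (ENSG00000157184, chr1:53196429-53214197, plus strand), which acts after CPT1A on the matrix side, was called with no drug. Its levels were 8.42, 8.03 and 7.17 CPM in control, 7.32, 6.46 and 7.48 CPM with iohexol, 10.4, 9.79 and 8.62 CPM under cisplatin, and 7.63, 5.61 and 5.11 CPM with vancomycin. The log2 differences from control were -0.13 (SE 0.16, adjusted p = 0.591), 0.28 (SE 0.14, adjusted p = 0.0874) and -0.40 (SE 0.19, adjusted p = 0.0672), in that order, and -0.17 with iohexol without iohexol replicate 3. The cisplatin libraries lay above the vancomycin libraries without overlap, by 0.65 on the log2 scale (SE 0.16, adjusted p = 0.00161). The exons of CPT2 overlap those of AL606760.2 on the opposite strand over 11.0% of their length, and that gene had 0 to 5 counts a library. They also overlap those of C1orf123 on the opposite strand over 0.947% of their length, a gene with 188 to 374 counts a library against 83 to 171 for CPT2. Whether counting used the strand was not given in the sources used here.

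ACADVL (ENSG00000072778, chr17:7217125-7225273, plus strand), the very long-chain acyl-CoA dehydrogenase, rose with vancomycin and slightly with cisplatin. Its control libraries were spread widely, at 178.6, 222.2 and 257.2 CPM. It stood at 183.3, 178.3 and 128.6 CPM with iohexol, 240.4, 255.0 and 275.8 CPM under cisplatin and 309.7, 377.6 and 373.6 CPM with vancomycin. The vancomycin libraries all lay above control, while the iohexol and cisplatin libraries overlapped with control. The rise was 1.57-fold with vancomycin (log2 0.65, SE 0.11, adjusted p = 1.72e-05) and 1.17-fold with cisplatin (log2 0.23, SE 0.09, adjusted p = 0.0437). The cisplatin call was lost without control replicate 1 (log2 0.10) or 2, and without cisplatin replicate 2 or 3. With iohexol the log2 difference was -0.40 (SE 0.15, adjusted p = 0.0780). Without the third iohexol library it was -0.26 (adjusted p = 0.0812), and without control replicate 1, the lowest control library, it was -0.54 (adjusted p = 0.0196). The exons of ACADVL overlap those of DLG4 on the opposite strand over 1.75% of their length, and DLG4 had 115 to 322 counts a library.

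HADHA (ENSG00000084754, chr2:26190635-26244726, minus strand), the alpha subunit of the trifunctional protein, stayed within 0.21 of control on the log2 scale with every drug. Its levels were 188.3, 193.7 and 192.3 CPM in control, 177.2, 163.4 and 165.8 CPM with iohexol, 200.7, 210.0 and 201.2 CPM under cisplatin, and 225.4, 238.0 and 218.9 CPM with vancomycin. No treated group overlapped with control, since the control libraries were close together, but only the vancomycin difference passed the test (1.15-fold, log2 0.21, SE 0.08, adjusted p = 0.0370). That call was lost in 5 of the 6 fits that left out a library. The log2 differences with iohexol and cisplatin were -0.16 (SE 0.08, adjusted p = 0.178) and 0.09 (SE 0.06, adjusted p = 0.180), and that with iohexol was -0.15 without iohexol replicate 3. HADHB, the beta subunit, had mean levels of 117 CPM in control, 101 CPM with iohexol, 133 CPM under cisplatin and 122 CPM with vancomycin, and only its cisplatin difference passed (log2 0.18, SE 0.06). Of the 31-base words of HADHA, 15.3% occur in other annotated transcripts, most of them in the pseudogene HADHAP2 (8.82%).

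ACOT1 (ENSG00000184227, chr14:73537114-73543794, plus strand), a cytosolic thioesterase that splits acyl-CoA into free fatty acid and CoA, was called higher with each drug, at very low counts. The counts were 11, 11 and 6 in control, 26, 28 and 15 with iohexol, 25, 24 and 22 with cisplatin, and 31, 49 and 46 with vancomycin. No treated library had as few counts as any control library. The rise was 2.46-fold with iohexol (log2 1.30, SE 0.41, adjusted p = 0.0401), 2.27-fold with cisplatin (log2 1.18, SE 0.38, adjusted p = 0.0117) and 4.14-fold with vancomycin (log2 2.05, SE 0.38, adjusted p = 6.53e-05). The iohexol call was lost in 5 of the 6 fits that left out a library, with an adjusted p of up to 0.147, and without iohexol replicate 3 the difference was 1.53 (adjusted p = 0.0117). The cisplatin call was lost without control replicate 3 (log2 0.93, adjusted p = 0.0634). ACOT1 shares 65.0% of its 31-base words with ACOT2, its mitochondrial neighbour on chromosome 14, so its reads cannot be assigned with certainty. When the counts of the 2 genes were summed, the log2 difference with iohexol was 0.33 (adjusted p = 0.207), with cisplatin 0.81 and with vancomycin 0.52. ACOT2 alone stood at 13.4, 15.3 and 17.1 CPM in control and rose with cisplatin, to 24.6, 26.7 and 28.1 CPM (log2 0.79, SE 0.11), and with vancomycin, to 17.4, 21.0 and 23.8 CPM (log2 0.40, SE 0.14). The vancomycin call of ACOT2 was lost with library size alone, without control replicate 1 and without vancomycin replicate 3, with an adjusted p of up to 0.115.

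ANGPTL4 (ENSG00000167772, chr19:8363289-8374373, plus strand), a secreted inhibitor of lipoprotein lipase, fell with iohexol and rose with the other two drugs. It stood at 57.4, 61.4 and 69.5 CPM in control, 29.2, 24.7 and 32.0 CPM with iohexol, 101.8, 99.2 and 102.2 CPM under cisplatin and 177.8, 210.2 and 203.8 CPM with vancomycin. The 4 groups did not overlap. It was 2.16-fold lower with iohexol (log2 -1.11, SE 0.12, adjusted p = 5.41e-05), 1.61-fold higher with cisplatin (log2 0.69, SE 0.07, adjusted p = 4.07e-07) and 3.05-fold higher with vancomycin (log2 1.61, SE 0.10, adjusted p = 9.98e-13). The distance between iohexol and vancomycin was the widest of any of the 8 genes between 2 drugs, at -2.78 on the log2 scale (SE 0.10, adjusted p = 2.83e-14). Without the third iohexol library the difference of ANGPTL4 from control was -1.20. Iohexol was the group with the lowest ANGPTL4 and the highest PDK4.

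PLIN2 (ENSG00000147872, chr9:19108375-19149290, minus strand), a coat protein of lipid droplets, responded mainly to vancomycin. It stood at 194.4, 183.8 and 171.8 CPM in control, 216.7, 222.3 and 223.7 CPM with iohexol, 186.9, 198.1 and 195.8 CPM under cisplatin and 491.7, 545.1 and 502.9 CPM with vancomycin. The vancomycin libraries were far above all others, the iohexol libraries lay above control without overlap, and the cisplatin libraries overlapped with control. The rise with vancomycin was 2.72-fold (log2 1.44, SE 0.09, adjusted p = 1.25e-12). With iohexol it was 1.22-fold (log2 0.29, SE 0.08, adjusted p = 0.0303), a call lost in 4 of the 6 fits that left out a library, and 0.28 on the log2 scale without iohexol replicate 3. The log2 difference with cisplatin was 0.08 (SE 0.06, adjusted p = 0.305). Vancomycin exceeded iohexol by 1.22 on the log2 scale and cisplatin by 1.41 in PLIN2 (adjusted p = 3.13e-11 and 2.28e-12).

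**Figure D2:**
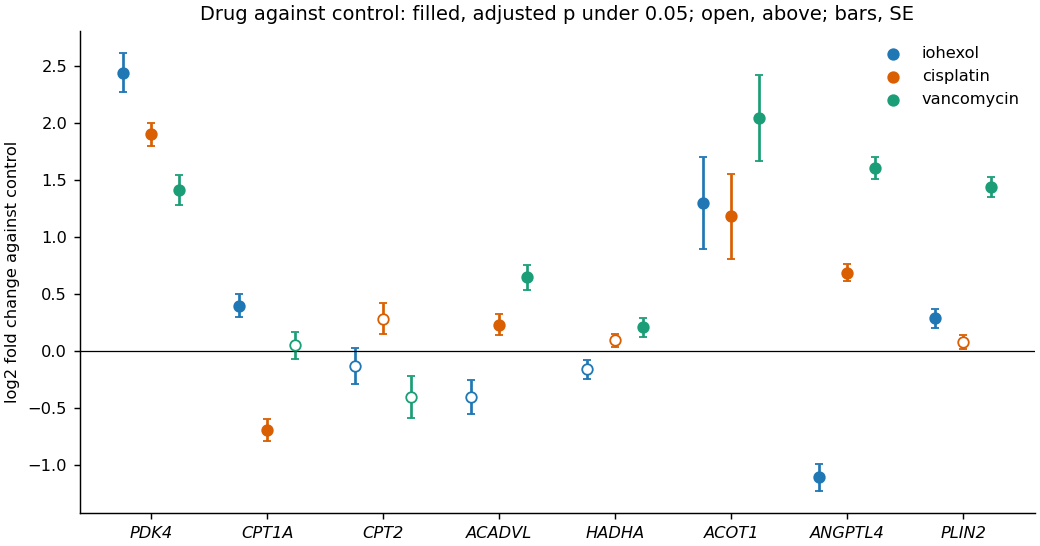
Log2 fold change against control (vertical axis) of the 8 genes with iohexol, cisplatin and vancomycin; bars are 1 SE either side, filled points have an adjusted p under 0.05 and open points do not. PDK4 and ACOT1 are filled and above 0 with all 3 drugs, and ANGPTL4 runs from -1.11 with iohexol to 1.61 with vancomycin.

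With iohexol, 4 of the 8 genes were higher and 1 was lower than control, where 11.2% of the 15657 genes tested were higher and 9.77% lower. With cisplatin, again 4 were higher and 1 lower, where 29.2% and 30.6% of 15876 genes were. With vancomycin, 6 were higher and 0 lower, where 29.0% and 28.8% of 15819 genes were. DESeq2 also called 0 lower with vancomycin, and 1, CPT2, was lower at an unadjusted p under 0.05. The median log2 difference of the 8 was 0.08 with iohexol, 0.26 with cisplatin and 1.03 with vancomycin, against 0.01, 0.01 and -0.01 over all genes tested. These comparisons share their control libraries, so the counts are given side by side only. Leaving out 1 library at a time gave 1 to 4 genes higher with iohexol, the fewest without control replicate 3 or iohexol replicate 2 and 2 without control replicate 1 or 2 or iohexol replicate 1. It gave 2 lower with iohexol without control replicate 1, and 1 lower with vancomycin (CPT2) without vancomycin replicate 1. The share of all genes called in those fits is not given here. Scaling by library size alone, in place of edgeR's TMM (trimmed mean of M-values) factors, moved the median difference of all genes by 0.22 on the log2 scale with cisplatin, and 43.6% of all genes were then higher with cisplatin and 20.4% lower. Of the 8, 7 were then higher and 1 lower with cisplatin, and 5 higher and 1 lower with vancomycin, where 25.5% and 33.0% of all genes were. With iohexol that scaling called 14.3% of all genes higher and 6.89% lower.

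Between the drugs, in the fit of all 12 libraries over 17073 genes, 3 of the 8 were higher with iohexol than with cisplatin and 4 lower, where 27.9% and 26.0% of all genes were. The PLIN2 difference of 0.19 was lost with RLE factors, library size alone, no filter and without iohexol replicate 2 or any 1 of the cisplatin replicates (adjusted p up to 0.469), and that of CPT2 with no filter and without iohexol replicate 2 or cisplatin replicate 1 or 2 (up to 0.102). ACOT1 was the exception, with a log2 difference of 0.10 (SE 0.33, adjusted p = 0.826). With iohexol against vancomycin, PDK4 and CPT1A were higher and 5 were lower, where 27.6% and 29.0% of all genes were. CPT2 was the exception there, at 0.21 (SE 0.17, adjusted p = 0.294). Among the 5, ACOT1 (-0.81, SE 0.32) was not called with DESeq2, library size alone, no filter or ACOT2 added, nor without iohexol replicate 3 (-0.58, adjusted p = 0.159) or vancomycin replicate 2 or 3. In the CPT1A difference the call was lost without iohexol replicate 2 or vancomycin replicate 2 or 3. The ACOT1 call for cisplatin against vancomycin was lost with library size alone and without cisplatin replicate 3 or vancomycin replicate 2. With cisplatin against vancomycin, PDK4 and CPT2 were higher and 5 were lower, where 30.0% and 34.7% of all genes were. HADHA was the exception there, at -0.16 (SE 0.07, adjusted p = 0.0569). Without vancomycin replicate 2 or 3 the number higher was 1, and for iohexol against vancomycin it was 1 without either of these or without iohexol replicate 2. CPT1A was lower with cisplatin than with vancomycin by 0.78 on the log2 scale (adjusted p = 3.57e-06), and ANGPTL4 by 0.96 (adjusted p = 2.66e-08).

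Divided by gene length, the levels of the 8 genes spanned a wide range in every group. In control, ACADVL (45.1 ± 8.09 CPM per kb, SD, n = 3) did not differ beyond the spread from HADHA (43.7 ± 0.643) or PLIN2 (36.0 ± 2.22). ANGPTL4 (25.3 ± 2.47) followed. PDK4 (5.65 ± 0.925) and CPT1A (5.50 ± 0.417) were again within their spread, and CPT2 (0.753 ± 0.0612) and ACOT1 (0.366 ± 0.122) were last. With iohexol, PDK4 reached 30.4 ± 7.67 CPM per kb, within the spread of ACADVL at 33.6 ± 6.22, while ANGPTL4 was at 11.5 ± 1.47. With cisplatin, PDK4 was at 21.1 ± 1.66 CPM per kb and CPT1A at 3.40 ± 0.263. With vancomycin, PLIN2 (100.9 ± 5.54 CPM per kb) and ANGPTL4 (79.5 ± 6.92) were first and second, ANGPTL4 within the spread of ACADVL at 72.7 ± 7.84. CPT2 and ACOT1 were the lowest pair in all 4 groups.

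Within its family, PDK4 held the largest share per length in each treated group. Per length, it made up 30.3 ± 2.21% (SD, n = 3) of the sum of PDK1, PDK2, PDK3 and PDK4 in control, 71.1 ± 4.67% with iohexol, 74.0 ± 2.47% with cisplatin and 57.5 ± 2.58% with vancomycin. PDK3 had been the largest per length in control, at 35.1 ± 0.884%. These shares rest on the gene lengths in the deposited table. In CPM without that division, PDK1 was the highest in control, with a mean of 64.5 CPM. PDK3 was then at 32.3 CPM and PDK4 at 25.5 CPM. With vancomycin, PDK1 (68.5, 60.4 and 58.0 CPM) overlapped with PDK4 (84.9, 60.5 and 64.3 CPM). The family sum was 18.6 ± 1.64 CPM per kb in control, 42.4 ± 8.27 with iohexol, 28.5 ± 1.37 with cisplatin and 26.8 ± 3.80 with vancomycin. The other kinases did not move as PDK4 did. PDK1 fell with iohexol (log2 -0.44, SE 0.11) and cisplatin (log2 -1.12, SE 0.08), PDK3 fell with cisplatin (log2 -0.85, SE 0.11) and vancomycin (log2 -0.64, SE 0.13), and PDK2 rose with iohexol (log2 0.60, SE 0.13) and vancomycin (log2 0.43, SE 0.14). The call of PDK1 with iohexol was lost without control replicate 2 or iohexol replicate 1 or 2, and that of PDK2 with vancomycin without vancomycin replicate 3. The remaining comparisons of these 3 kinases with control did not pass the test.

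CPT1A supplied nearly the whole of its family, between 95.7% (cisplatin) and 97.5% (control) of the per-length sum of CPT1A, CPT1B and CPT1C on the group means. CPT1B had mean levels of 0.489 to 0.708 CPM and was called with no drug, untested with vancomycin, and CPT1C was below the filter on low counts in all 3 comparisons. PLIN2 went from 41.5 ± 4.01% of the PLIN1 to PLIN5 sum in control to 51.8 ± 4.83% with iohexol and 59.3 ± 1.96% with vancomycin, and was at 39.9 ± 1.59% with cisplatin; these shares are given as values, with no test. PLIN3, the other abundant droplet coat gene, rose with cisplatin (log2 0.18, SE 0.07) and vancomycin (log2 0.40, SE 0.09). ACOT1 was 5.57 ± 2.29% of ACOT1 with ACOT2 in control and 15.3 ± 2.44% with vancomycin.

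**Figure D3:**
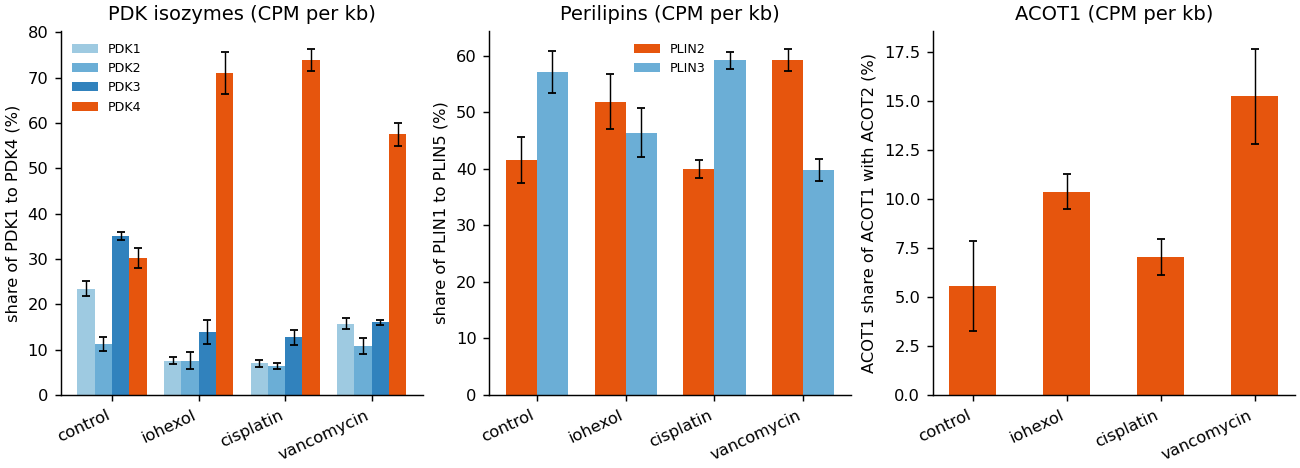
Share of each gene in the per-length (CPM per kb) sum of its family, in percent (vertical axes from 0), for PDK1 to PDK4, for PLIN2 and PLIN3 among PLIN1 to PLIN5, and for ACOT1 with ACOT2; bars are means of 3 libraries and whiskers 1 SD. PDK4 goes from 30.3% in control to between 57.5% and 74.0% in the treated groups.

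The receptors that act on these genes did not follow a single direction. PPARA had means of 42.7 CPM in control, 46.5 CPM with iohexol, 15.5 CPM under cisplatin and 47.9 CPM with vancomycin, and fell with cisplatin (log2 -1.46, SE 0.10, adjusted p = 8.78e-10). PPARD fell with iohexol (log2 -0.40, SE 0.12) and cisplatin (log2 -0.30, SE 0.10) and rose with vancomycin (log2 0.66, SE 0.12, adjusted p = 3.38e-05). PPARG rose with vancomycin (log2 0.56, SE 0.12, adjusted p = 3.37e-04), with log2 differences of 0.30 and 0.18 with iohexol and cisplatin that did not pass. PPARGC1A, the coactivator PGC-1α, rose with iohexol (log2 0.77, SE 0.12) and fell with cisplatin (log2 -1.32, SE 0.09) and vancomycin (log2 -1.04, SE 0.14). Of the 9 PPAR and RXR receptor and coactivator genes tested, 1 was higher and 2 lower with iohexol, 0 higher and 7 lower with cisplatin, and 4 higher and 3 lower with vancomycin. With cisplatin, DESeq2 gave 0 higher as well, and 0 were higher at an unadjusted p under 0.05. The median log2 difference of this list was -0.09, -0.80 and 0.13 with iohexol, cisplatin and vancomycin, and over the 11 lists of related genes such medians ran from -0.09 to 0.72, from -0.80 to 0.18 and from -0.05 to 0.52. Each count of these lists is to be read against the share of all genes called with that drug and that scaling, given above. With library size alone this list had 1 higher and 6 lower with cisplatin and 1 higher and 1 lower with iohexol. The calls of PPARD with iohexol and cisplatin were each lost in some fits that left out a library (control replicates 2 and 3 and iohexol replicates 1 and 2, and control replicate 2 and cisplatin replicates 2 and 3).

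Among 12 further genes, which are transcription factors known to act on PDK4 or genes such as FKBP5, TSC22D3 and PER1 that respond to glucocorticoids, 3 rose and 3 fell with iohexol, and 7 rose and 1 fell with vancomycin. With cisplatin 4 rose and 5 fell of the 11 tested, and 5 rose and 3 fell with library size alone. KLF9, a glucocorticoid-responsive factor, rose with vancomycin (log2 2.00, SE 0.17), as did CEBPB, a bZIP factor (log2 1.73, SE 0.09). CEBPB also rose with cisplatin (log2 0.41, SE 0.07) and iohexol (log2 0.36, SE 0.11), the last with overlapping groups and lost in 5 of the 6 fits that left out a library. FKBP5, another glucocorticoid-responsive gene, fell with iohexol (log2 -0.77, SE 0.12) and vancomycin (log2 -0.93, SE 0.12) and rose with cisplatin (log2 0.27, SE 0.09, adjusted p = 0.0147). FOXO1, a forkhead activator of PDK4, was at 1.18 CPM in control and fell with cisplatin (log2 -1.94, SE 0.47).

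Around the pyruvate dehydrogenase complex, 4 of 13 genes rose and 1 fell with iohexol, 4 rose and 4 fell with cisplatin (6 and 2 with library size alone), and 1 rose and 3 fell with vancomycin. MPC1, a subunit of the mitochondrial pyruvate carrier, rose with iohexol (log2 1.13, SE 0.20) and cisplatin (log2 0.74, SE 0.19). PDP2, a phosphatase that reverses the action of the kinases, rose with the same drugs (log2 0.74, SE 0.12, and 0.39, SE 0.10). DLD, the E3 subunit, fell with cisplatin (log2 -0.26, SE 0.07) and vancomycin (log2 -0.88, SE 0.09). Its cisplatin difference was -0.05 with library size alone (adjusted p = 0.602) and missed the threshold without cisplatin replicate 3 (adjusted p = 0.0545).

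In fatty acid uptake and activation, 3 of 11 genes rose and 1 fell with iohexol, 1 rose and 1 fell with cisplatin, and 6 rose and 2 fell with vancomycin. With library size alone the counts were 4 and 0 with iohexol and 5 and 0 with cisplatin. ACSL1, an acyl-CoA synthetase and PPAR target, rose with iohexol from 57.5 to 132.8 CPM (log2 1.23, SE 0.09), and DBI, the acyl-CoA binding protein, with vancomycin from 81.3 to 210.8 CPM (log2 1.33, SE 0.10). ACSL4 fell with cisplatin (log2 -0.18, SE 0.06), but its difference was 0.04 when scaled by library size alone. Of the 8 carnitine shuttle and malonyl-CoA genes, 0 were called with iohexol by edgeR and 0 by DESeq2, while 1 was higher and 1 lower at an unadjusted p under 0.05, and 1 rose and 3 fell with cisplatin (3 and 2 with library size alone). With vancomycin 2 rose and 2 fell of the 7 tested. ACACA, the acetyl-CoA carboxylase whose product malonyl-CoA inhibits CPT1A, fell with cisplatin (log2 -1.11, SE 0.07) and vancomycin (log2 -0.65, SE 0.10). MLYCD, which degrades malonyl-CoA, fell with cisplatin (log2 -0.95, SE 0.25) and rose with vancomycin (log2 1.05, SE 0.18).

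Of 15 other mitochondrial beta-oxidation genes tested, 2 rose and 1 fell with iohexol, 5 rose and 6 fell with cisplatin, and 4 rose and 2 fell with vancomycin. With library size alone 8 rose and 2 fell with cisplatin, and 4 rose and 4 fell with vancomycin. ACAA2, the thiolase of the last step, rose with iohexol (log2 0.38, SE 0.10) and cisplatin (log2 0.39, SE 0.08), and HADH, the short-chain hydroxyacyl-CoA dehydrogenase, fell with cisplatin (log2 -1.02, SE 0.10). ETFB, a subunit of the flavoprotein that accepts electrons from ACADVL, rose with cisplatin (log2 0.55, SE 0.12) and vancomycin (log2 0.91, SE 0.14). Among 11 peroxisomal genes, 0 were called with iohexol by edgeR and 1 by DESeq2, while 1 was higher and 1 lower at an unadjusted p under 0.05. With the other drugs 5 rose and 4 fell with cisplatin, and 2 rose and 2 fell with vancomycin (1 and 3 with library size alone). Of 5 ketone body genes, 1 fell with iohexol, 3 fell with cisplatin, and 3 rose and 2 fell with vancomycin; OXCT1, which activates ketone bodies for use, was lower with all 3 drugs (log2 -0.72, -0.23 and -0.87), with overlapping groups for cisplatin. With library size alone 1 ketone body gene rose and 0 fell with cisplatin, where OXCT1 was at -0.01. Of 7 other thioesterases, 1 rose with iohexol, 3 rose and 2 fell with cisplatin, and 5 rose with vancomycin (3 rose and 1 fell with library size alone).

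Of 14 lipid droplet and triglyceride genes, 5 rose and 1 fell with vancomycin. G0S2, an inhibitor of the triglyceride lipase ATGL, rose from 20.9 ± 3.70 CPM in control to 364.3 ± 63.3 CPM with vancomycin (log2 4.08, SE 0.13, adjusted p = 1.43e-17), and fell with iohexol to 13.3 ± 2.22 CPM (log2 -0.64, SE 0.17), a call lost without control replicate 2 or 3 (adjusted p = 0.0739 and 0.0607). With cisplatin 6 of the 14 rose and 3 fell (7 and 2 with library size alone), and with iohexol 1 rose and 1 fell. PNPLA2, the gene of ATGL itself, rose with cisplatin (log2 0.62, SE 0.08), as did DGAT2, which makes triglyceride (log2 1.05, SE 0.11). Of 4 lipase and angiopoietin-like genes, 1 rose with iohexol, 2 rose and 1 fell with cisplatin (2 and 0 with library size alone), and 2 rose and 1 fell with vancomycin. ANGPTL2, a relative of ANGPTL4, rose with all 3 drugs (log2 1.07, 1.16 and 2.44), including iohexol, with which ANGPTL4 fell.

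**Figure D4:**
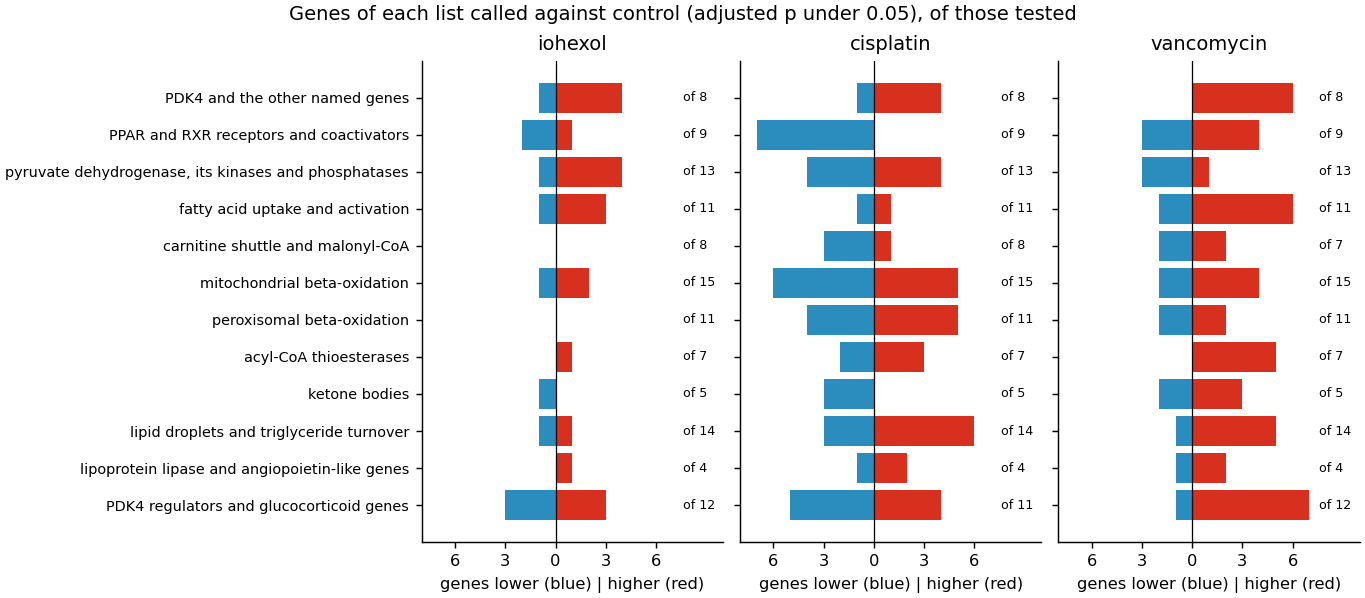
Number of genes of each list called lower (blue, leftward) or higher (red, rightward) than control at an adjusted p under 0.05, one panel a drug; the number tested stands at the right of each row. Of the PPAR and RXR genes, 7 of 9 are lower with cisplatin, where 30.6% of all genes tested are. Of the 12 PDK4 regulators and glucocorticoid genes, 7 are higher with vancomycin, where 29.0% of all genes tested are.

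Over the 12 libraries, the 5 genes whose log2 CPM followed PDK4 most closely, of 14699 with a mean of at least 1 CPM, were SETDB2 (Pearson r = 0.948), CLCN4 (0.948), CERS2 (0.940), TRIM5 (0.921) and PFKFB2 (0.913). These correlations are a description, and the 12 points share the same 4 groups. The steps were smaller than that of PDK4: SETDB2 went from 7.62 CPM in control to 17.8, 13.3 and 10.8 CPM with iohexol, cisplatin and vancomycin, and CERS2, a ceramide synthase, from 108.9 to 145.0, 142.9 and 134.9 CPM. PFKFB2, which makes the glycolytic activator fructose 2,6-bisphosphate, went from 30.4 to 65.2, 73.3 and 44.2 CPM, with cisplatin rather than iohexol the highest.

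Marker genes of other cells and of the tubule were measured beside these results. Of the 6 adipocyte markers, which would accompany PLIN2 and ANGPTL4 in fat cells, none had a mean above 1 CPM in any group, LEP was at 0 in all 12 libraries, and their sum was 0.125 to 0.329 CPM in control and 0.246 to 0.675 CPM with vancomycin. The 7 fibroblast markers summed to 115.0 to 129.0 CPM in control and 106.5 to 116.0 CPM with iohexol. Their sum was 105.2 to 109.1 CPM under cisplatin and 241.4 to 277.4 CPM with vancomycin. Of the 4 tested with vancomycin, 4 were higher, where 29.0% of all genes were, and the alternatives gave 3 to 4. DCN and LUM were among them (log2 1.27 and 1.14). COL1A2 and PDGFRA were at 0 in every control and every vancomycin library. The 11 proximal tubule markers summed to 687.8 to 824.3 CPM in control and 369.9 to 393.3 CPM with cisplatin. PAX8 fell with cisplatin from a mean of 371.7 to 131.4 CPM. HNF4A had at most 3 counts in any library of the 4 groups. With iohexol the sum was 804.0 to 1015 CPM and PAX8 rose (log2 0.75), and with vancomycin it was 784.6 to 883.0 CPM. The 6 epithelial markers summed to 872.0 to 978.5 CPM in control and 707.1 to 863.2 CPM with iohexol. Their sum was 1370 to 1425 CPM under cisplatin and 1290 to 1417 CPM with vancomycin. Of the 5 tested, 0 were higher and 2 lower with iohexol, 4 and 1 with cisplatin, and 3 and 2 with vancomycin. These counts are to be read against the shares of all genes given above. The endothelial and leukocyte markers stayed at or below 4.28 and 4.12 CPM in sum in every library. The part of these shifts in the results above was not tested.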

How the data were processed

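HK-2 libraries were made from poly(A) RNA with the NEBNext Ultra kit. The submitters' notes name CASAVA 1.8, fastp, HISAT2 2.0.5, featureCounts 1.5.0-p3 and DESeq2 1.20.0, and the build and the strand setting are not given in the sources used here. Gene positions are those in the deposited table and match GRCh38. The authors deposited raw counts per gene for the 12 samples, and these deposited counts, which are not normalised, were used for every value. Groups and replicate numbers came from the sample titles.

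Genes were filtered with edgeR 4.0.16 (filterByExpr, minimum count 10, minimum total 15), scaled by TMM and tested with its quasi-likelihood test (R 4.3.3). Each drug was compared with control in a fit of those 6 libraries, and drugs with each other in a fit of all 12. Genes with a Benjamini-Hochberg adjusted p under 0.05 over all genes tested were called. The SE is the log2 fold change divided by the square root of the F statistic. CPM used the TMM-scaled totals, and CPM per kb the gene length in the table; log2 CPM took a prior count of 2. The fitting code was also run on simulated counts, with few genes changed and the same fixed spread for every gene. That setting is unlike these data and does not show how the test behaves when many genes change. Alternatives were DESeq2 1.42.0, limma-voom (limma 3.58.1), RLE factors, library size alone, no filter, at least 10 counts in every sample, fold rules, a replicate block, a shared or smaller fit, ACOT1 with ACOT2 summed, and leaving out each library. Applying these to the wider gene lists was chosen after seeing the data.

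The 8 genes and all lists were chosen with earlier results of these data known, and support nothing by their choice. From each list, up to 3 called genes with the largest fold change in each direction could be named, besides PPARA, PPARD, PPARG, PDK1 to PDK3, CPT1B, CPT1C, ACOT2, HADHB and PLIN3, which always are; some genes that this rule names are not reported here. The libraries vary by more than counting error, so their number, 3 a group, limits the precision. Sequence sharing was counted over 31-base words of the GENCODE transcripts.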

Additional observations from a re-analysis of the deposited data

How the results depend on the processing

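PDK4 and ANGPTL4 against control with all 3 drugs, CPT1A with cisplatin and PLIN2 and ACADVL with vancomycin kept their direction and an adjusted p under 0.05 under every alternative run, fold rules aside. With iohexol, the log2 fold change of PDK4 ranged from 2.23 to 2.59. The rule of a fold over 2, added to the adjusted or the unadjusted p, left 2 higher with iohexol, and 2 higher and 0 lower with cisplatin. With vancomycin, PDK4, ACOT1, ANGPTL4 and PLIN2 rose by a fold over 2 against control. Between iohexol and cisplatin the rule left 1 higher and 1 lower. It left 0 and 3 for iohexol against vancomycin, and 0 and 1 for cisplatin against vancomycin. The share of all genes called is not given here for the fold rules, DESeq2, no filter or the shared fit. DESeq2, no filter on low counts and a shared fit of the 4 groups each gave 2 lower with iohexol, ACADVL joining ANGPTL4. Scaling by library size alone gave 7 higher with cisplatin, 1 lower with vancomycin (CPT2) and 3 lower for cisplatin against vancomycin. In that last comparison it called 45.8% of all genes higher and 23.1% lower, and turned HADHA to 0.18 (adjusted p = 0.0259). Summing ACOT1 and ACOT2 turned the difference to -0.50 for iohexol against cisplatin (adjusted p = 0.00772) and to 0.25 for cisplatin against vancomycin (adjusted p = 0.143); the summed count is mostly ACOT2.

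Leaving out 1 library at a time gave 1 to 4 genes higher and 1 to 2 lower with iohexol, 0 to 1 lower with vancomycin, and 1 to 2 higher for iohexol against vancomycin and for cisplatin against vancomycin. The single genes behind the iohexol ranges were CPT1A, ACOT1 and PLIN2 for those higher and ACADVL for those lower. No share of all genes is given beside these ranges. Libraries of the same replicate number did not go together: their deviations from the group mean correlated at -0.02 on average over 18 pairs (-0.18 to 0.10). The mean over 36 others, 0.01, is tied to the first by the centring and is no separate comparison. The largest single value, 0.29, was for control replicate 1 with iohexol replicate 3. With the replicate block, 1 gene was higher with iohexol, PDK4, and 1 lower with vancomycin, CPT2 (adjusted p = 0.0416), and the PLIN2 call for iohexol against cisplatin was lost (adjusted p = 0.0571). Among the other named genes, the calls of ACAA2, CEBPB and PPARD with iohexol and of ACSL4, HADHB, OXCT1 and PLIN3 with cisplatin were lost in several alternatives, and ACSL4 with cisplatin and PLIN3 for cisplatin against vancomycin changed sign with library size alone.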
